A study of Mus musculus with 7 samples.

Results

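The mRNAs of 10 genes that mark neutrophils or attract them were followed in s/c mouse PDA tumors by RNA-seq: S100a8, S100a9, Cxcr2, Csf3r, Csf3, Cxcl1, Cxcl2, Cxcl3, Cxcl5 and Il1b. They were looked up by name among the 22629 rows of the count table, and all 10 had a row. The choice of names was made with earlier results of these data known. PDA is pancreatic ductal adenocarcinoma. All tumors were formed by 1242 KPC cells, a line from a mouse pancreatic tumor, injected under the skin of C57BL/6 mice and harvested 2 weeks after inoculation. In the 3 sgScramble tumors (numbers 1, 4 and 5) the cancer cells carried Cas9 and a scrambled guide RNA that targets no gene. In the 4 icOVA tumors (numbers 15, 16, 18 and 2) cells of that kind also carried icOVA, a cytoplasmic form of ovalbumin, chicken egg protein, whose vector is switched on by doxycycline. The methods describe single-cell cloning of the ovalbumin line, so a difference between cell populations and one due to ovalbumin cannot be told apart here. The methods describe doxycycline food for hosts of the ovalbumin-inducible tumors, to switch ovalbumin on. Neither the labels nor the methods state whether the hosts of these sgScramble tumors received doxycycline. A difference due to doxycycline therefore cannot be told apart from the others here. Total counts ran from 30904855 to 37510591 per tumor. OVA counts, 85 to 151 in sgScramble and 3413 to 10750 in icOVA tumors, differed in the direction of the labels. They were not 0 in sgScramble tumors, and the source of those reads was not examined.

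Neutrophils are short-lived granulocytes that the bone marrow releases under the cytokine G-CSF, encoded by Csf3, whose receptor is encoded by Csf3r. They are drawn into tissue by the chemokines CXCL1, CXCL2, CXCL3 and CXCL5, all ligands of the receptor CXCR2. IL-1β, the product of Il1b, induces these chemokines in many cells. S100A8 and S100A9 form calprotectin, the most abundant cytosolic protein of neutrophils, although monocytes also make it. In PDA, neutrophils and related myeloid cells are frequent in the stroma and have been studied for their effects on T cells.

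The 4 ligand genes lie in 1 cluster on chromosome 5 of GRCm38 (GENCODE M21 annotation, all on the plus strand): Cxcl5 at chr5:90759360-90761624, Cxcl3 at chr5:90786103-90789600, Cxcl1 at chr5:90891241-90893115 and Cxcl2 at chr5:90903871-90905938. S100a8 (chr3:90668978-90670035, plus strand) and S100a9 (chr3:90692632-90695721, minus strand) are neighbors on chromosome 3. Cxcr2 lies at chr1:74153989-74161246, Csf3r at chr4:126024550-126044440 and Csf3 at chr11:98701263-98703629, all on the plus strand, and Il1b at chr2:129364570-129371139 on the minus strand. The Il1b gene overlaps Il1bos on the opposite strand. Whether the counting used strand is not given in the sources used here, so reads of this pair may not have been told apart.

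The promoters of the ligand genes Cxcl1, Cxcl2 and Cxcl3 are shown because they share a sequence that the other promoters searched mostly lack. RefSeq (GRCm38.p6) gave a promoter for 8 of the 10 members. Cxcl5 and Csf3 had none, so whether the remaining ligand gene, Cxcl5, has the sequence was not examined. The window of 220 bases runs from 250 to 31 bases before the transcription start. A motif of GGG and TTCC with any 3 bases between them, a form of the site bound by NF-κB factors, was searched on both strands, and its matches are in capitals, including those that overlap one another. The windows are chr5:90890995-90891214, chr5:90903649-90903868 and chr5:90785851-90786070, all on the plus strand, 5′ to 3′.
Cxcl1: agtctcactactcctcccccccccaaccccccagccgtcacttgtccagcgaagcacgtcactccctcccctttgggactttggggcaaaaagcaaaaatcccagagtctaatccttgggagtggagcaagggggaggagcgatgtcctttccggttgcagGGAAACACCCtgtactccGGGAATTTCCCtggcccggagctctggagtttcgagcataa
Cxcl2: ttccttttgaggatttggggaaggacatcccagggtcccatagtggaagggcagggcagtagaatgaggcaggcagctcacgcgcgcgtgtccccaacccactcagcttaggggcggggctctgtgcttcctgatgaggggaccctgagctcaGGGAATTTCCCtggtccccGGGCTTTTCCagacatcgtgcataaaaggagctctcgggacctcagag
Cxcl3: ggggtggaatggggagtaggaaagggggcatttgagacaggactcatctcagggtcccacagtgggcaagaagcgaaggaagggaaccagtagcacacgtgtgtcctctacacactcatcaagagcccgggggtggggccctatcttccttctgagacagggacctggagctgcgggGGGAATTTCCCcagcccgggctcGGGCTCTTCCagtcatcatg
Each of the 3 windows held 3 matches, of which GGGAATTTCC and its overlapping match on the other strand, GGAATTTCCC, were present in all of them. The pair began 71 and 70 bases before the start in Cxcl1, 97 and 96 bases before it in Cxcl2 and 73 and 72 bases before it in Cxcl3. Csf3r held a single match, and S100a8, S100a9, Cxcr2 and Il1b held none in this window. Sequence outside the windows was not searched, and a part of the motif in the fold changes was not tested. Of all 32851 RefSeq promoter windows of this length, 3.84% held the motif, against 4 of these 8. The 3 ligand genes among those 4 lie in the same cluster and share the same sequence, so they do not count as independent members. The C/EBP-type motif TTNNGNAA, searched the same way, was in 34.2% of all windows and in those of S100a8, S100a9, Cxcl2 and Il1b. For Il1b the window is chr2:129371170-129371389 on the minus strand, with its single TTNNGNAA match in capitals.
Il1b: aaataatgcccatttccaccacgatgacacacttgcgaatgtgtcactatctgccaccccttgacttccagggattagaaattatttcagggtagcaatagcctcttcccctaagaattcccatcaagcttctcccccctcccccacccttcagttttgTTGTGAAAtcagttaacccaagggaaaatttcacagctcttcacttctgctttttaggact
These matches describe letters in the windows only. No binding was measured.

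None of the members passed the test between icOVA and sgScramble tumors, although 8 of the 9 members that could be tested had positive log2 fold changes. Their median log2 fold change was 0.66, against -0.0048 over all genes tested. With edgeR's quasi-likelihood test and Benjamini-Hochberg adjustment over 17489 genes, 0 of 9 members had an adjusted p below 0.05, and 5.90% of all genes did. An unadjusted p below 0.05 was found for 5 of the 9 members (Csf3r, Cxcl1, Cxcl2, Cxcl3 and Il1b) and for 27.2% of all genes. DESeq2, an alternative test, called Cxcl2 and Il1b at adjusted p values of 0.0224 and 0.00272, where it called 16.5% of all genes. The other alternative test, limma-voom, called 0 members and 5.38% of all genes. Csf3 had too few counts for the test. Since these are whole tumors, a change in the number of cells of a type and a change in RNA per cell cannot be told apart.

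**Figure D1:**
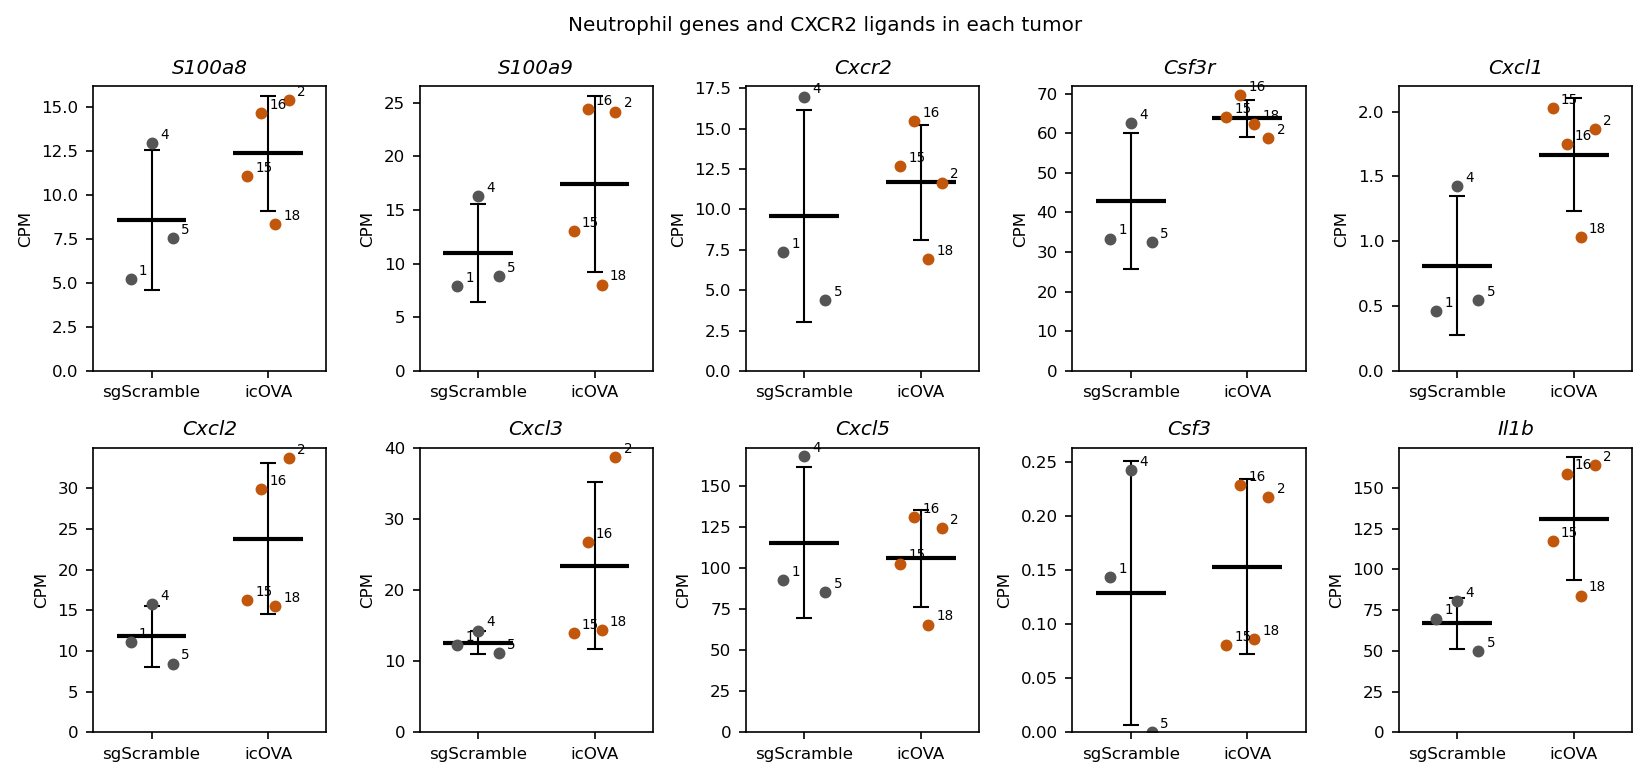
Each panel plots 1 member in CPM (counts scaled to library size), with a point for each tumor labeled by its number, a horizontal line at the group mean and a bar of 1 SD. sgScramble tumor 4 is the highest sgScramble tumor in every panel, and only in the Il1b panel do all 4 icOVA tumors lie above all 3 sgScramble tumors.

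S100a8 had 181, 427 and 237 counts in sgScramble tumors 1, 4 and 5 and 410, 512, 291 and 496 counts in icOVA tumors 15, 16, 18 and 2. In CPM, the counts scaled to the size of the library, these were 5.21, 13.0 and 7.58 against 11.1, 14.7, 8.37 and 15.4. The groups overlapped, with sgScramble tumor 4 above icOVA tumors 15 and 18. The log2 fold change of icOVA over sgScramble tumors was 0.53 ± 0.33 (SE, edgeR adjusted p = 0.341). S100a9 had 7.92, 16.3 and 8.83 CPM in sgScramble and 13.1, 24.4, 8.05 and 24.2 CPM in icOVA tumors. Tumors 16 and 2 of the icOVA group stood above all others, while tumor 18 was no higher than sgScramble tumor 5. The difference for S100a9 was 0.66 on the log2 scale (SE 0.43, adjusted p = 0.352 from edgeR). The ratio of S100a8 to S100a9 counts, the partners of calprotectin, was 0.771 ± 0.103 (SD, n = 3) in sgScramble and 0.781 ± 0.203 (SD, n = 4) in icOVA tumors and overlapped between the groups.

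The receptor genes differed from each other in how the tumors were spread. Cxcr2 had 7.37, 17.0 and 4.41 CPM in sgScramble tumors 1, 4 and 5 and 12.7, 15.5, 6.93 and 11.7 CPM in icOVA tumors 15, 16, 18 and 2. Its highest tumor of all was sgScramble tumor 4 and its lowest was sgScramble tumor 5, and the log2 fold change was 0.29 ± 0.45 (SE, edgeR adjusted p = 0.717). The sign of this value turned without sgScramble tumor 5, to -0.053. Csf3r, by contrast, was nearly level within the icOVA group, at 64.0, 69.7, 62.3 and 58.8 CPM. The sgScramble tumors had 33.4, 62.6 and 32.6 CPM of Csf3r, so that tumor 4 lay among the icOVA tumors and the other two well below them. Csf3r had a log2 fold change of 0.57 ± 0.23 (SE, edgeR adjusted p = 0.155). Without sgScramble tumor 4 this became 0.96 and passed the test (adjusted p = 0.0101 from edgeR), as did 8.63% of all genes in that fit.

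Ly6g, Cxcr1, Mpo and Elane were near 0 in every tumor, while only some other genes typical of neutrophils were not. Among the latter, named after their values were seen, Ltf, the granule protein lactoferrin that epithelial cells also make, had 56 to 634 counts. Cd177, a neutrophil surface antigen, had 26 to 64 counts, and Asprv1, a protease also made by keratinocytes, had 29 to 110 counts, with the groups overlapping for all 3 genes. Ly6g, the surface antigen used to identify mouse neutrophils, had 1, 2 and 0 counts in sgScramble and 4, 7, 7 and 4 counts in icOVA tumors. The groups did not overlap, but every value was at most 7 counts per library. Cxcr1, a receptor of the same chemokine family, had 0, 0 and 1 counts in sgScramble and 3, 9, 3 and 6 in icOVA tumors. In a fit without the filter on low counts, the adjusted p values of Ly6g and Cxcr1 were 0.121 and 0.0883. Mpo and Elane, enzymes of the primary granules laid down in the bone marrow, had 0 to 13 and 0 to 3 counts. Camp, Ngp and Retnlg, listed neutrophil genes also named after their values were seen, had 0 to 4, 0 to 6 and 9 to 33 counts. Of 13 neutrophil granule genes listed, 12 had a row and 7 were tested. The median log2 fold change of these 7 was 0.15, against -0.0048 over all genes, and 0 of them passed in either direction. With edgeR 5.90% of all genes passed. An unadjusted p below 0.05 was found for 1 of them above and 1 below 0, DESeq2 called 1 higher and limma-voom called 1 lower. Of all genes, 27.2% had such an unadjusted p, DESeq2 called 16.5% and limma-voom called 5.38%. Fcnb had no row under this name.

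The granule genes with the smallest p values lay in opposite directions. Lcn2 encodes lipocalin-2, an iron-binding protein of secondary granules that inflamed epithelial cells also make. It had 59.0, 42.2 and 80.5 CPM in sgScramble tumors 1, 4 and 5 and 1.76, 16.8, 1.04 and 17.6 CPM in icOVA tumors 15, 16, 18 and 2. All icOVA tumors lay below all sgScramble tumors, and tumors 15 and 18 had the least. The log2 fold change of -2.71 (SE 0.88) did not pass with edgeR (adjusted p = 0.103) and passed with limma-voom (log2 fold change -3.63, adjusted p = 0.0470). Mmp8, neutrophil collagenase, had 1.60 ± 0.434 CPM (SD, n = 3) in sgScramble and 3.89 ± 1.58 CPM (SD, n = 4) in icOVA tumors without overlap, and with edgeR the log2 fold change of 1.28 ± 0.37 (SE) was at an adjusted p of 0.0806. Mmp9, the gelatinase of tertiary granules that macrophages also make, was the most abundant gene of this list at 61.2 ± 36.0 and 67.7 ± 14.9 CPM (log2 fold change 0.15 ± 0.36 SE, edgeR adjusted p = 0.820). Ctsg, the granule protease cathepsin G, had 3.05, 1.88 and 1.34 CPM in sgScramble tumors 1, 4 and 5 and 0.216, 0.172, 1.98 and 0.311 CPM in icOVA tumors 15, 16, 18 and 2. The groups overlapped through icOVA tumor 18 alone, and the log2 fold change of -1.64 (SE 0.82) did not pass (edgeR adjusted p = 0.238). Without that tumor it was -3.16 and passed (edgeR adjusted p = 0.0210), as did 6.44% of all genes.

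Among the CXCR2 ligands, Cxcl1, Cxcl2 and Cxcl3 had log2 fold changes near 1 and Cxcl5 had one near 0. Cxcl2 had 11.1, 15.8 and 8.44 CPM in sgScramble tumors 1, 4 and 5 and 16.2, 29.8, 15.5 and 33.7 CPM in icOVA tumors 15, 16, 18 and 2. Only sgScramble tumor 4 and icOVA tumor 18 were out of order between the groups, and they were nearly equal. Its log2 fold change was 1.01 ± 0.34 (SE, edgeR adjusted p = 0.111). Cxcl3 had 12.3, 14.3 and 11.2 CPM in sgScramble and 14.0, 26.8, 14.4 and 38.6 CPM in icOVA tumors. Here too icOVA tumors 16 and 2 stood apart, while tumors 15 and 18 were at the level of sgScramble tumor 4 (log2 fold change 0.90 ± 0.37 SE, edgeR adjusted p = 0.165). Cxcl1 was scarce, with 16, 47 and 17 counts in sgScramble and 75, 61, 36 and 60 counts in icOVA tumors. In CPM this was 0.811 ± 0.536 (SD, n = 3) against 1.67 ± 0.437 (SD, n = 4), which made a log2 fold change of 1.04 ± 0.44 (SE, edgeR adjusted p = 0.179). Without sgScramble tumor 4, whose Cxcl1 count exceeded that of icOVA tumor 18, it became 1.73 and passed (adjusted p = 0.0377 from edgeR). In that fit 8.63% of all genes passed.

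Cxcl5 was the most abundant ligand and did not follow the other ligands. It had 92.5, 168 and 85.3 CPM in sgScramble tumors 1, 4 and 5 and 103, 131, 65.6 and 124 CPM in icOVA tumors 15, 16, 18 and 2. Both the highest value and the next to lowest belonged to the sgScramble group. Its log2 fold change was -0.12 ± 0.30 (SE, edgeR adjusted p = 0.816), and the sign turned without sgScramble tumor 4 (0.26) and without icOVA tumor 18 (0.048). Relative to Cxcl2, however, Cxcl5 separated the groups. The ratio of Cxcl5 to Cxcl2 counts was 8.30, 10.6 and 10.1 in sgScramble and 6.32, 4.38, 4.24 and 3.68 in icOVA tumors, with no overlap. The pair was chosen after its values were seen, so the ratio carries no test. The ratio of Cxcl2 to Cxcl3 counts overlapped, at 0.922 ± 0.174 (SD, n = 3) and 1.06 ± 0.128 (SD, n = 4).

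Of 4 other genes of the CXCR2 axis, 3 were tested and 0 passed in either direction with edgeR, where 5.90% of all genes passed. All 3 had unadjusted p values below 0.05, as did 27.2% of all genes. DESeq2 called 16.5% of all genes and limma-voom 5.38%. Ppbp encodes the platelet-derived ligand CXCL7. It had 0.547 ± 0.188 CPM (SD, n = 3) in sgScramble and 1.83 ± 0.802 CPM (SD, n = 4) in icOVA tumors, without overlap, and a log2 fold change of 1.74 ± 0.41 (SE, edgeR adjusted p = 0.0514). It passed with DESeq2 (adjusted p = 0.00370), and with edgeR when sgScramble tumor 4, icOVA tumor 16 or icOVA tumor 18 was left out (adjusted p = 0.0329 to 0.0492). In those edgeR fits, in that order, 8.63%, 10.0% and 6.44% of all genes passed. The other platelet genes on the red cell and platelet list did not pass either. Cxcl15, the mouse chemokine lungkine of epithelial cells, had 7.77, 4.41 and 9.88 CPM in sgScramble and 0.243, 1.52, 0.115 and 1.40 CPM in icOVA tumors. As for Lcn2, icOVA tumors 15 and 18 were the lowest. With edgeR its log2 fold change of -3.17 ± 0.75 (SE) was at an adjusted p of 0.0505, just outside the threshold, and it passed with DESeq2 (adjusted p = 0.000637) and with limma-voom (adjusted p = 0.0370). Over all the alternatives its adjusted p ran from 0.000637 to 0.202. Ackr1, the endothelial and red cell receptor that binds several of these chemokines without signaling, had 1.18 to 2.17 CPM in sgScramble and 2.41 to 12.9 CPM in icOVA tumors (log2 fold change 1.94 ± 0.54 SE, edgeR adjusted p = 0.0745). It passed with DESeq2 (adjusted p = 0.00288) and, with edgeR, without icOVA tumor 16 (adjusted p = 0.0271).

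Il1b came nearest to the threshold of all members and was the only one whose groups did not overlap. It had 2425, 2658 and 1566 counts in sgScramble tumors 1, 4 and 5 and 4351, 5538, 2918 and 5277 counts in icOVA tumors 15, 16, 18 and 2. In CPM these were 69.8, 80.8 and 50.1 against 118, 159, 83.9 and 164, so that icOVA tumor 18 was just above sgScramble tumor 4. Among all genes, 24.7% separated the groups and 11.3% did so in this direction. The means were 66.9 ± 15.6 CPM (SD, n = 3) and 131 ± 37.7 CPM (SD, n = 4), which made a log2 fold change of 0.97 ± 0.26 (SE, edgeR unadjusted p = 0.00593 and adjusted p = 0.0665). Without icOVA tumor 18 it was 1.13 and passed (adjusted p = 0.0305 from edgeR), as did 6.44% of all genes. Over all the alternatives the log2 fold change of Il1b stayed between 0.80 and 1.13. Per Cxcl2 count, Il1b was at 5.77 ± 0.594 (SD, n = 3) and 5.71 ± 1.05 (SD, n = 4), with the groups overlapping.

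Csf3 was hardly detected. It had 5, 8 and 0 counts in sgScramble and 3, 8, 3 and 7 counts in icOVA tumors. The count of 0 in sgScramble tumor 5 allows up to 3 counts, or 0.0959 CPM, for counting error alone. A difference in Csf3 was not detectable at this depth (log2 fold change 0.22 ± 0.83 SE, edgeR adjusted p = 0.903 without the filter on low counts).

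Of 22 genes of the IL-1, IL-17 and colony-stimulating factor pathways, 21 had a row, 20 were tested, 3 rose and 0 fell in icOVA tumors, with edgeR. The share of all genes that rose was 3.36%, and 2.54% fell. A log2 fold change above 0 was found for 17 of the 20, against 49.4% of all genes, with a median of 0.55. Below 0, 1 of them (Il17rc, named after its value was seen) had an unadjusted p below 0.05, and neither DESeq2 nor limma-voom called any gene of the list lower. Il1rn, the natural antagonist that blocks the IL-1 receptor, rose with a log2 fold change of 0.80 ± 0.15 (SE, edgeR adjusted p = 0.0333). It had 76.3, 94.1 and 61.8 CPM in sgScramble and 126, 146, 117 and 152 CPM in icOVA tumors, without overlap between the groups. Nlrp3, the sensor of the inflammasome that matures IL-1β, rose from 12.3 ± 3.31 CPM (SD, n = 3) to 26.8 ± 3.24 CPM (SD, n = 4), or by a log2 fold change of 1.12 ± 0.19 (SE, edgeR adjusted p = 0.0271). Csf2rb, the shared signaling chain of the GM-CSF, IL-3 and IL-5 receptors, rose from 96.7 ± 20.3 to 195 ± 9.74 CPM (log2 fold change 1.01 ± 0.13 SE, edgeR adjusted p = 0.0230). These 3 calls were lost without sgScramble tumor 1, sgScramble tumor 5, icOVA tumor 15 or icOVA tumor 2. In the first 3 of these fits 0 genes of all passed, and in the fit without icOVA tumor 2 only 0.0463% did. Their adjusted p values with a tumor left out ran from 0.00853 to 0.152. The ratio of Il1b to Il1rn counts overlapped between the groups, at 0.861 ± 0.0527 (SD, n = 3) and 0.955 ± 0.176 (SD, n = 4). Il17a had no row under this name, and Il17f had 0 to 2 counts in every tumor.

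Of 20 surface and mature-cell genes of neutrophils, 19 had a row and 17 were tested. Of these, 6 rose and 0 fell in icOVA tumors with edgeR, against 3.36% and 2.54% of all genes. A log2 fold change above 0 was found for 16 of the 17, against 49.4% of all genes. The median was 0.997, against -0.0048 over all genes tested. No gene of this list was below 0 at an unadjusted p below 0.05, or was called lower by DESeq2 or limma-voom. Fpr2, a receptor for formylated peptides of bacteria and mitochondria, rose from 14.3, 20.8 and 14.8 CPM in sgScramble to 47.1, 49.0, 34.0 and 54.4 CPM in icOVA tumors (log2 fold change 1.47 ± 0.20 SE, edgeR adjusted p = 0.0230). Even its lowest icOVA tumor, 18, was well above sgScramble tumor 4. Clec4d, a C-type lectin that senses fungi and mycobacteria, rose from 32.8 ± 7.77 CPM (SD, n = 3) to 73.3 ± 6.82 CPM (SD, n = 4), or by a log2 fold change of 1.16 ± 0.16 (SE, edgeR adjusted p = 0.0230). Mcemp1, a membrane protein of myeloid cells, had a log2 fold change of 0.997 ± 0.14 (SE, edgeR adjusted p = 0.0230). Itgam, which encodes CD11b, the integrin of myeloid cells, was the most abundant and rose from 116 ± 27.0 to 206 ± 3.32 CPM (log2 fold change 0.83 ± 0.14 SE, edgeR adjusted p = 0.0271).

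Clec4e, the partner lectin of Clec4d, named after its value was seen, also passed, with a log2 fold change of 1.79 ± 0.28 (SE, edgeR adjusted p = 0.0258). The genes named here from this list are also expressed by monocytes. With sgScramble tumor 1, sgScramble tumor 5, icOVA tumor 15 or icOVA tumor 2 left out, 0 genes of the list passed. In these fits, in that order, 0.00%, 0.00%, 0.00% and 0.0463% of all genes passed. Stfa2 had no row under this name. The monocyte and macrophage list had 4 of 12 genes that rose and 0 that fell, against 3.36% and 2.54% of all genes. It had 0 genes below 0 at an unadjusted p below 0.05, and 0 called lower by DESeq2 or limma-voom. Its summed level was 2338 to 3152 CPM in sgScramble and 4002 to 5480 CPM in icOVA tumors. Its part in these results was not tested.

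**Figure D2:**
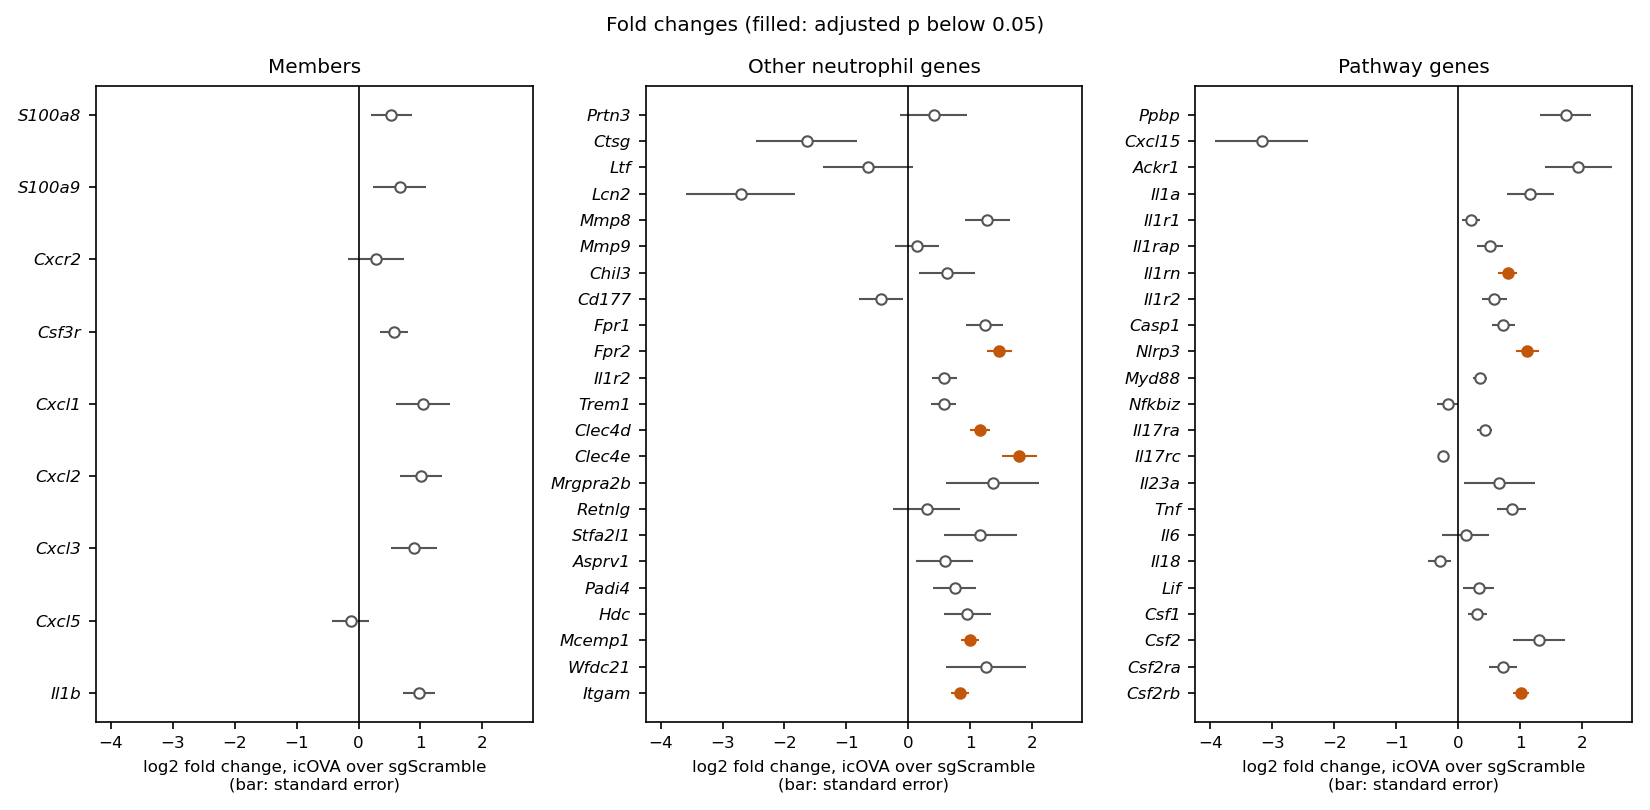
Points give the log2 fold change of icOVA over sgScramble tumors and bars 1 SE for the tested members (left), other neutrophil genes (middle, with 1 counted gene not drawn) and genes of the CXCR2, IL-1, IL-17 and colony-stimulating factor pathways (right). Filled points, at an adjusted p below 0.05 from edgeR, are 0 of 9 members, Fpr2, Clec4d, Clec4e, Mcemp1 and Itgam in the middle panel and Il1rn, Nlrp3 and Csf2rb on the right.

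The overlap between the groups lay mostly in single tumors. sgScramble tumor 4 was the highest of its group for 9 of 9 tested members, as it was for 39.3% of all genes, and it lay above the lowest icOVA tumor for 8 of the 9. Every icOVA tumor exceeded sgScramble tumors 1 and 5 for 6 of 9 members and for 20.5% of all genes. Within the icOVA group, tumor 18 was the lowest for 7 of 9 members, against 35.6% of all genes. Without sgScramble tumor 4 the members' median log2 fold change was 1.004, all 9 were above 0, and 2 passed, where 8.63% of all genes did. Without icOVA tumor 18 the median was 0.90, and 1 passed, where 6.44% of all genes did. With sgScramble tumor 1 or 5 or icOVA tumor 15, 16 or 2 left out, the median lay between 0.48 and 0.79, and 0 members passed. Of all genes, 10.0% passed without icOVA tumor 16, 0.0463% without icOVA tumor 2 and 0.00% in each of the other 3 fits, so that 0 members says little outside the fit without tumor 16.

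These tumors also differed in markers of other cells. The eosinophil and mast cell markers summed to 244 CPM in sgScramble tumor 4 against 135 and 104 CPM in tumors 1 and 5. Of these sums Il5ra made up 93.1 CPM in tumor 4 and 107 and 71.1 CPM in tumors 1 and 5, so it did not set tumor 4 apart. Cma1, mast cell chymase, had 27.0 CPM in sgScramble tumor 4 and 3.28 and 5.34 CPM in tumors 1 and 5. The fibroblast markers summed to 15800 CPM in sgScramble tumor 4 and to 7179 and 6720 CPM in tumors 1 and 5. In the icOVA group the same sum was 26740 and 36840 CPM in tumors 15 and 18 and 5641 and 9202 CPM in tumors 16 and 2, the pair of tumors with the most S100a9, Cxcl2, Cxcl3 and Il1b. Cancer epithelial markers summed to 2777 CPM in icOVA tumor 18 and to 4477 to 4886 CPM in the other icOVA tumors, with 4486 to 4815 CPM in the sgScramble group. OVA was also lowest in icOVA tumor 18 within its group, at 98.2 CPM against 186 to 308 CPM. The part of these cells in the members' values was not tested.

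Between the groups, 7 of 8 T cell markers rose, where 3.36% of all genes did. The T cell markers summed to 88.5 to 142 CPM in sgScramble and 196 to 307 CPM in icOVA tumors. Of 7 tested eosinophil and mast cell markers, Il5ra alone rose (log2 fold change 0.71 ± 0.14 SE, edgeR adjusted p = 0.0343), and the list summed to 104 to 244 CPM and 228 to 477 CPM. The other eosinophil markers did not follow Il5ra. Prg2, of eosinophil granules, had 0 to 13 counts, and Epx had no row under this name. Siglecf and Ccr3, named after their values were seen, had 25 to 44 and 8 to 16 counts. For Prg2, Siglecf and Ccr3 the groups overlapped. The fibroblast markers (0 of 8 called), the cancer epithelial markers (0 of 8) and the red cell and platelet markers (0 of 7) had sums that overlapped between the groups. Of all genes, 5.90% were called by edgeR. Across these 3 lists an unadjusted p below 0.05 was found for 1, 1 and 0 genes, DESeq2 called 0, 1 and 0 and limma-voom called 0 in each. Over all genes these 3 shares were 27.2%, 16.5% and 5.38%. Keratinocytes, which lie near s/c tumors and can make S100a8 and S100a9, had sums of 51.4 to 72.0 CPM in sgScramble and 68.7 to 135 CPM in icOVA tumors, with 0 of 4 genes called, 3 at an unadjusted p below 0.05, 1 by DESeq2 and 0 by limma-voom. Of the defining genes Krt14 had 2 to 15 and Lor 2 to 13 counts. Krt5, Krt1, Krt6a, Krt6b, Flg and Krtdap had no row under these names, so their levels are not known here.

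**Figure D3:**
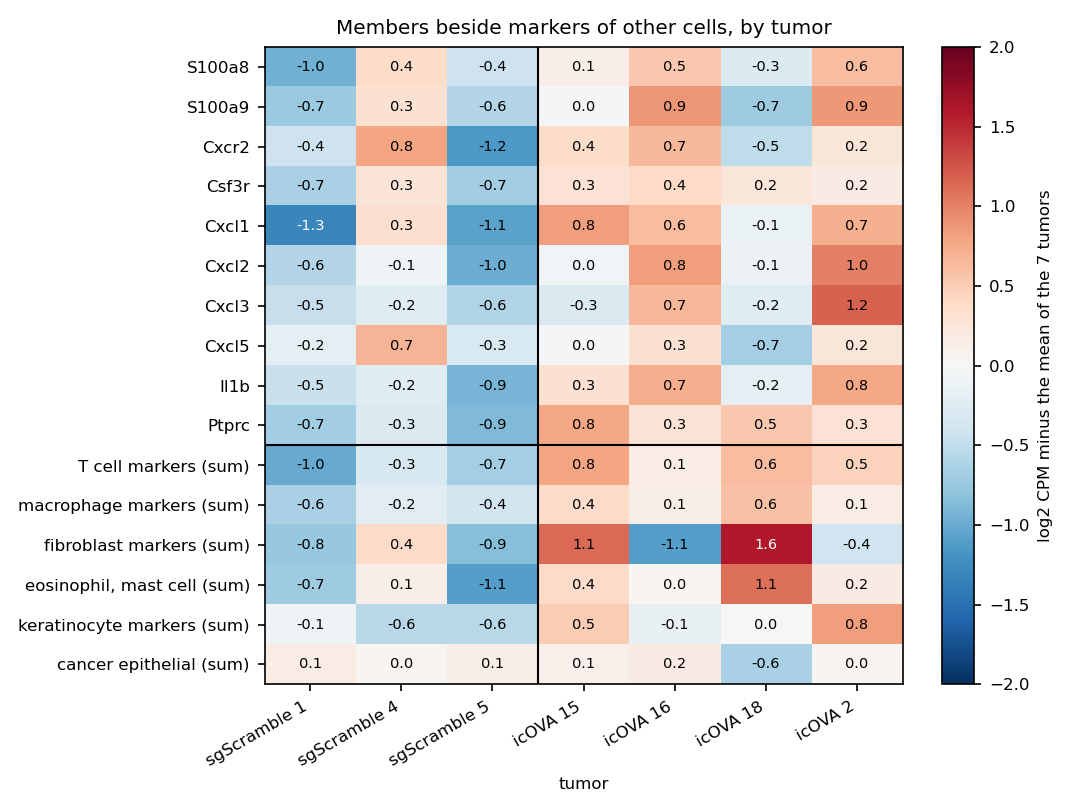
Colors and numbers give log2 CPM minus the mean of the 7 tumors for the 9 tested members and Ptprc (rows above the line) and for summed markers of other cells (rows below it), with the sgScramble tumors left of the vertical line. sgScramble tumor 4 is above tumors 1 and 5 in every member's row, icOVA tumors 16 and 2 are the highest for S100a9, Cxcl2, Cxcl3 and Il1b, and the fibroblast row is highest in icOVA tumors 15 and 18.

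Ptprc, which encodes the leukocyte antigen CD45, rose with a log2 fold change of 1.08 ± 0.18 (SE, edgeR adjusted p = 0.0271), from 132, 175 and 116 CPM to 363, 258, 312 and 260 CPM. This call was lost without sgScramble tumor 1, without sgScramble tumor 5, without icOVA tumor 15 and without icOVA tumor 2, with adjusted p values of 0.0619 to 0.131 from edgeR, while its log2 fold change in those fits was 0.96 to 1.15. Set against Ptprc in the same tumor, most members no longer stood higher in icOVA tumors. S100a8 had 59.6 ± 17.99 (SD, n = 3) counts per 1000 Ptprc counts in sgScramble and 43.4 ± 17.1 (SD, n = 4) in icOVA tumors. Il1b had 474 ± 49.6 and 460 ± 190, and Cxcl2 had 82.5 ± 8.78 and 84.9 ± 44.0. For these genes the groups overlapped, and icOVA tumors 15 and 18 were below every sgScramble tumor while tumors 16 and 2 were not. Csf3r per 1000 Ptprc counts was 253, 357 and 282 in sgScramble and 176, 270, 200 and 226 in icOVA tumors, so that only icOVA tumor 16 reached into the range of the sgScramble group.

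Cxcl5 was the member that separated the groups on this scale. It had 700, 958 and 737 counts per 1000 Ptprc counts in sgScramble tumors 1, 4 and 5 and 282, 506, 210 and 477 per 1000 in icOVA tumors 15, 16, 18 and 2. Each icOVA tumor was below each sgScramble tumor, a mean difference of -1.19 on the log2 scale. For the other 8 tested members this difference lay between -0.64 (Cxcr2) and 0.10 (Cxcl1). Because Ptprc itself differed between the groups, these values describe proportions and are given without a test. A gene that is level in CPM is lower per Ptprc count in icOVA tumors, and the log2 fold change of Cxcl5 in CPM was -0.12. The share of all genes that separate the groups on this scale was not computed.

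**Figure D4:**
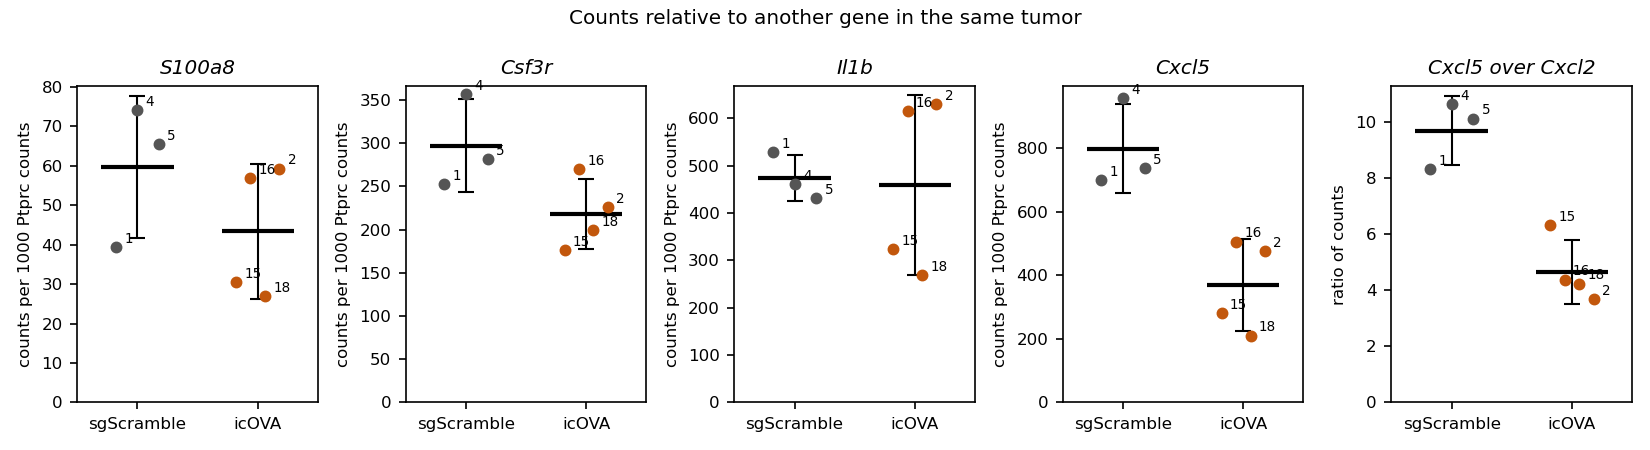
Points give the counts of S100a8, Csf3r, Il1b and Cxcl5 per 1000 Ptprc counts, and the ratio of Cxcl5 to Cxcl2 counts, in each tumor, with the group mean (line) and 1 SD (bar). The groups overlap for S100a8, Csf3r and Il1b, while Cxcl5 lies between 700 and 958 in sgScramble and between 210 and 506 in icOVA tumors, and Cxcl5 over Cxcl2 lies at 8.30 to 10.6 and 3.68 to 6.32.

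Levels can be compared between genes only per length, here as CPM per kilobase of all annotated exons joined. For Cxcl1, Cxcl2 and Cxcl3 these exons covered the whole gene (1875, 2068 and 3498 bases). Their values may therefore be too low against genes whose introns were left out, which limits the order given here. In sgScramble tumors the order was Cxcl5 (61.9 ± 24.6, SD, n = 3), Il1b (35.1 ± 8.15), S100a9 (21.1 ± 8.80), S100a8 (12.4 ± 5.73), Csf3r (11.9 ± 4.74), Cxcl2 (5.70 ± 1.80), Cxcl3 (3.60 ± 0.456), Cxcr2 (3.14 ± 2.15), Cxcl1 (0.432 ± 0.286) and Csf3 (0.0913 ± 0.0865). The ranges of mean ± SD of neighbors in this order overlapped except between Cxcr2 and Cxcl1. In icOVA tumors Il1b (68.7 ± 19.8, SD, n = 4) came before Cxcl5 (56.7 ± 15.7), and the order of the others was the same. There the ranges of neighbors overlapped except between Csf3r (17.7 ± 1.26) and Cxcl2 (11.5 ± 4.51), between Cxcr2 (3.83 ± 1.16) and Cxcl1 (0.890 ± 0.233), and between Cxcl1 and Csf3 (0.109 ± 0.0572). Cxcl1 was thus far scarcer than Cxcl5 in both groups.

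The genes whose log2 CPM followed a member most closely over the 7 tumors were sought among 14128 genes with a mean count of 50 or more, as a description with no test. Il1b was followed most closely by Acod1 (Pearson r = 0.992), the itaconate-producing enzyme of activated macrophages, then by the interferon-induced GTPase gene Ifi47 (0.992), N4bp1 (0.991), Ell2 (0.990) and Upp1 (0.988). Cxcl2 was the member nearest to Il1b (0.964, rank 27) and Cxcl5 the farthest (0.431). For S100a9 the nearest were Mss51 (0.965), BC055324 (0.961), Rnd1 (0.952), Lin9 (0.952) and Wdr12 (0.948), and its partner S100a8 had rank 16 (0.924). For Cxcr2 they were Zgrf1 (0.981), Zfand4 (0.979), Map2k4 (0.967), Greb1l (0.955) and Rasal2 (0.947). Cxcl1, at its low counts, was nearest to Exo1 (0.991), Psmd1 (0.989), Gm14048 (0.989), Apoo (0.988) and Junos (0.986). With 7 tumors in 2 groups that also differ in many other genes, such values are high for many genes.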

How the data were processed

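RNA of 7 s/c tumors was sequenced after a TruSeq preparation, for which the labels name polyA RNA and the methods a stranded total RNA kit. The authors deposited 1 table of counts (22629 rows), which are whole numbers of reads per gene with no scaling. The labels name mm10 as the genome build. The aligner, the counting tool, its strand setting and the annotation are not given in the sources used here. Identifiers were matched to GENCODE M21 symbols (22414 matched). Fold changes were computed from the deposited counts with edgeR 4.0.16 in R 4.3.3: filterByExpr (minimum count 10, minimum total 15), TMM scaling and the quasi-likelihood test of 3 sgScramble against 4 icOVA tumors, with Benjamini-Hochberg adjustment and a threshold of 0.05. The SE is the log2 fold change divided by the square root of F. Log2 CPM has a prior count of 2. No member shared identical counts with another row. Each tumor is its own sample in the labels, and p values measure the spread between tumors. The script was tested on simulated data.

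Alternatives were DESeq2 1.42.0, limma-voom (limma 3.58.1), total count scaling, upper quartile scaling, no filter, a mean count of at least 50, and leaving out each tumor. Named genes are the members, Ptprc, OVA, Ly6g, Mpo, Elane, Cxcr1, from each other list the most abundant gene and the 3 with the smallest p, and the 5 genes nearest to S100a9, Cxcr2, Cxcl1 and Il1b. A further gene of the surface list is counted but not reported here. Genes outside this rule illustrate a count or a marker list. The members and the lists were chosen with earlier results of these data known. Promoter sequences are from RefSeq (GRCm38.p6), and Cxcl5 and Csf3 had no entry.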

Additional observations from a re-analysis of the deposited data

Results flagged for a closer look

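Among 53 values examined in the icOVA group, 1 stood far from the rest: the level of Sox9, a transcription factor of pancreatic duct cells on the cancer epithelial list. It was 4.78 log2 CPM in icOVA tumor 18 and 5.50, 5.61 and 5.62 in tumors 15, 16 and 2, so that the gap to the nearest tumor was 0.858 of the range of the group. The sgScramble tumors had 6.10, 5.98 and 6.17 log2 CPM. Tumor 18 was also the lowest icOVA tumor for 7 of the 9 tested members. In data without any outlier, about 1 in 20 values, or 2.65 of 53, would be set apart in this way by chance.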

How the results depend on the processing

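With DESeq2, 1558 genes were called higher and 1278 lower (588 and 444 with edgeR), 2 members higher, 10 other neutrophil genes higher and 13 pathway genes higher. With limma-voom, 1 other neutrophil gene was called lower (Lcn2). 1 pathway gene, Cxcl15, was called lower with DESeq2, limma-voom, total counts, the upper quartile or a mean count of at least 50. With each tumor left out in turn, the genes called ran from 0 to 1014 higher and from 0 to 716 lower, members from 0 to 2 higher and 0 to 0 lower, other neutrophil genes from 0 to 9 higher and 0 to 1 lower, and pathway genes from 0 to 10 higher and 0 to 1 lower. When sgScramble tumor 1 or 5 or icOVA tumor 15 was omitted, 0 genes passed, and edgeR gave unadjusted p values below 0.05 to 3087, 2936 and 3415 genes. Without icOVA tumor 2, 6 genes were higher and 2 lower. With tumors left out, the sign turned for Cxcr2 (range -0.053 to 0.99, negative without sgScramble tumor 5), for Cxcl5 (-0.30 to 0.26, positive without sgScramble tumor 4 and, at 0.048, without icOVA tumor 18), and for Mmp9 (-0.13 to 0.74, negative without sgScramble tumor 5 and, at -0.0089, without sgScramble tumor 1). The causes were not tested. Under the alternatives that kept all tumors, 51 of 53 values of members kept their direction and their side of the threshold. No paired analysis was possible because no tumor number occurs in both groups. Cxcl1, at 16 to 75 counts, and Csf3, at 0 to 8 counts, rest on few reads, which limits their precision.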
